A study of Rattus norvegicus with 12 samples.

Results

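The genes described here are the steroid hormone receptors Esr1, Esr2 and Nr3c1 and the receptor-bound immunophilins Fkbp4 and Fkbp5, chosen by name. They are 5 of the 14224 genes that the array annotation names with a single symbol, and 7 of 31042 probe sets that are not Affymetrix controls measured them. Fkbp5 and Nr3c1 had 2 probe sets each. RNA from rat testes of embryonic day 16 was measured on 12 Affymetrix arrays, 2 in each of 6 groups. The F1 vinclozolin group held testes of embryos carried by females that were injected intraperitoneally with the fungicide vinclozolin, which has anti-androgenic metabolites, at 100 mg/kg/day on pregnancy days 8 to 14. The F2 and F3 vinclozolin groups were embryos of the next generations of that lineage, with no further dosing in the protocols. The F1, F2 and F3 control groups were the matching generations of a lineage whose founders received sesame oil and DMSO. For F2 and F3 of the vinclozolin lineage, the protocol text speaks of mated animals of control lines, whereas the sample titles name the vinclozolin lineage, and groups were taken from the titles. Each array held a pool of about 10 testes, and nothing in the labels says whether 2 pools of a group had separate litters, so every p-value measures the spread between pools, which may be technical.

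Steroid receptors are transcription factors that a hormone switches on. Before the hormone binds, the receptor is held in a complex of the chaperone Hsp90 and a set of partner proteins. Among these partners are Fkbp4 and Fkbp5, immunophilins that compete for the same docking site on the chaperone. Fkbp4 helps the receptor to bind hormone and to move to the nucleus, and male mice without it have malformed external genitalia. Fkbp5 lowers the hormone affinity of the glucocorticoid receptor, and glucocorticoids, progestins and androgens induce its gene, so that it is widely used as a readout of receptor activity. Nr3c1 encodes the glucocorticoid receptor, and Esr1 and Esr2 encode the estrogen receptors alpha and beta. In the rodent fetal testis, estrogen receptor alpha is best known from Leydig cells and estrogen receptor beta from germ cells.

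The promoter windows of the immunophilins are shown because both proteins bind the same receptor complex. They are the 250 bases before the start of each gene from RefSeq, build GRCr8, both on the minus strand, with Fkbp4 at chr4:163397919-163398168 and Fkbp5 at chr20:6543556-6543805. Capitals mark GC boxes (GGGCGG on either strand) and the core of a heat shock element (GAANNTTC), whose marked letters do not overlap here.
Fkbp4: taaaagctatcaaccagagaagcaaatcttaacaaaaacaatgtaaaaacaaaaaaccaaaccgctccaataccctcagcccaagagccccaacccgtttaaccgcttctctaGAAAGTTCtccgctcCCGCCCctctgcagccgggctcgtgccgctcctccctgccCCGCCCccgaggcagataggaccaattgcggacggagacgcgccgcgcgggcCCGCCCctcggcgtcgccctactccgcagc
Fkbp5: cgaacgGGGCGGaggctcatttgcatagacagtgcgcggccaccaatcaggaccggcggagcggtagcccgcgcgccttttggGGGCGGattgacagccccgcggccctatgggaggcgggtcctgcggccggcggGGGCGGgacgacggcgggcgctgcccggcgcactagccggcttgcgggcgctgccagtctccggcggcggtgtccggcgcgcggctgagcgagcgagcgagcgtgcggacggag
Both windows hold 3 GC boxes, and 30.5% of 33465 promoter windows of the same length hold at least 1. The Fkbp4 window has 59.6% G and C and 1 heat shock element core, which begins 137 bases before the start and which 7.23% of windows hold. The Fkbp5 window has 76% G and C and no such core. The half-site AGAACA of the glucocorticoid receptor, found in 17.5% of windows on either strand, was in neither window, and the best-described hormone response elements of Fkbp5, in human and mouse cells, lie in its introns. These matches describe letters and not bound sites, and the array values do not bear on them.

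Before the results, the arrays themselves need a description. The deposited values are linear signals scaled by the submitters to the same trimmed mean, and array medians were 40.5 to 42.8 on vinclozolin arrays and 44.5 to 47.1 on control arrays. The ratio of the 5' to the 3' probe set of beta-actin, a measure of RNA integrity and labelling, was 0.171 ± 0.030 in F1, 0.233 ± 0.020 in F2 and 0.378 ± 0.025 in F3 vinclozolin testes, against 0.459 ± 0.003, 0.447 ± 0.034 and 0.453 ± 0.016 in the F1, F2 and F3 controls (SD, n = 2 each). No vinclozolin array (0.149 to 0.395) reached the range of the control arrays (0.423 to 0.471), so this ratio and the lineage cannot be told apart. The same ratio of Gapdh was 0.651 to 0.718 in F1, 0.721 to 0.800 in F2 and 0.970 to 1.02 in F3 vinclozolin testes, against 0.959 to 1.02 on all control arrays, so that it was low in F1 and F2 and overlapped the controls in F3. Summed signals of the 7 measured of 7 Leydig cell markers were 12573 to 14947 on vinclozolin and 11525 to 12201 on control arrays. Those of 4 of 6 erythroid markers were 6130 to 8268 on vinclozolin and 4896 to 5544 on control arrays. Those of 6 of 7 peritubular and interstitial markers were 4023 to 4465 on vinclozolin and 4567 to 4750 on control arrays. Those of 4 of 7 Sertoli cell markers were 5054 to 6202 on vinclozolin and 5252 to 5762 on control arrays. The F2 vinclozolin arrays (6090 to 6202) lay above all control arrays, and those of F1 (5264 to 5376) and F3 (5054 to 5281) did not. The 2 of 8 germ cell markers with a named probe set were Kit and Nanos3. Over all arrays Kit ranged from 2.5 to 80.1 and Nanos3 from 29.1 to 55.2, so most of the range of their sum can come from Kit. In vinclozolin testes they summed to 45.4 to 59.7 in F1, 70.9 to 81.6 in F2 and 89.7 to 104.7 in F3. In control testes they summed to 111.5 to 116.5 in F1, 117 to 119.8 in F2 and 93.6 to 101.4 in F3. The lineages thus overlapped only in F3. Of the ventral prostate markers, Pbsn stayed at 0.2 to 10.6 on all arrays. The F3 vinclozolin sums given next thus come almost wholly from the others, Scgb1d2, Scgb1d4 and Scgb2a1. The 4 measured of 4 ventral prostate markers summed to 34.8 to 61.3 in F1, 59.7 to 63.3 in F2 and 624 to 755 in F3 vinclozolin testes, and to 4.5 to 24.5 on all control arrays. Those of 4 of 7 kidney and adrenal markers were at 13.3 to 32.6 on vinclozolin and 16.8 to 29.9 on control arrays. In pooled organs fewer cells of a type and less RNA per cell cannot be told apart, and the part of these measures in the results below was not tested beyond the fit with the beta-actin ratio given with them.

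Fkbp5, the immunophilin gene that steroid hormones induce, had the largest called lineage difference among the 4 tested member probe sets, in the signal of 1380611_at. In F1 its signal was 171.5 and 169.9 in vinclozolin testes, against 270.9 and 314.7 in control testes. In F2 it was 208.9 and 210.5 in vinclozolin testes, against 328.8 and 306.5 in control testes. In F3 it was 231.5 and 221.9 in vinclozolin testes, against 253.2 and 303.0 in control testes. Every vinclozolin array (169.9 to 231.5) lay below every control array (253.2 to 328.8), as was the case in the lower direction for 7.73% of the 21729 probe sets tested. The groups ran upward from F1 vinclozolin (171) through F2 vinclozolin (210) and F3 vinclozolin (227) to F3 control (278), with no overlap between neighbours. The F3 (278), F1 (293) and F2 (318) controls overlapped their neighbours. The beta-actin ratio ran in the same order over the 3 vinclozolin groups.

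On the log2(signal + 16) scale, the scale of every log2 difference given here, Fkbp5 1380611_at fell by 0.72 ± 0.11 in F1 (SE, adjusted p = 0.000341) and by 0.56 ± 0.11 in F2 (adjusted p = 0.00376), limma's moderated test over all 21729 tested probe sets with Benjamini-Hochberg adjustment. These are vinclozolin to control ratios of 0.606 and 0.677. In F3 the difference of −0.27 ± 0.11 did not pass the adjusted threshold of 0.05 (unadjusted p = 0.0270, adjusted p = 0.203). The mean of the 3 generations was −0.52 ± 0.06 (adjusted p = 2.72e-05), a ratio of 0.698. Whether the difference depended on generation was tested directly and did not pass (unadjusted p = 0.0352, adjusted p = 0.251). The F2 call was lost without the F2 control array of replicate 1 (adjusted p = 0.0536). With the beta-actin ratio as a covariate the differences were −1.11 in F1 and −0.85 in F2 and neither passed (adjusted p = 1.00 and 0.863), and with this covariate limma called 0 of 21729 probe sets in F1, in F2 and in the mean, where 953, 1252 and 1103 had an unadjusted p under 0.05.

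The other Fkbp5 probe set, 1388901_at, gave another picture of the same gene. Its signal in F1 was 464.4 and 419.6 in vinclozolin testes, against 449.0 and 445.4 in control testes. Its signal in F2 was 460.7 and 496.4 in vinclozolin testes, against 470.3 and 486.0 in control testes. In both generations the lineages overlapped, and the fitted differences were −0.02 ± 0.09 in F1 (95% interval −0.21 to 0.17, adjusted p = 0.909) and 0.00 ± 0.09 in F2 (adjusted p = 0.998). In F3 the signal was 361.2 and 367.7 in vinclozolin testes, against 461.0 and 480.8 in control testes. The F3 arrays of the lineages did not overlap, as for 29.7% of tested probe sets in this direction, and the signal fell by 0.36 ± 0.09 (adjusted p = 0.0441). F3 vinclozolin testes (364) were the lowest of the 6 groups, while F1 vinclozolin (442), F1 control (447), F3 control (471), F2 control (478) and F2 vinclozolin (479) followed within a narrow range. This F3 call was lost in 12 of 23 alternatives, 8 of which left out a single array, with adjusted p between 0.0764 and 0.305 in those 8. The test of dependence on generation gave an unadjusted p of 0.0218 and an adjusted p of 0.204, and the mean over generations was −0.12 ± 0.05 (adjusted p = 0.0784).

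**Figure D1:**
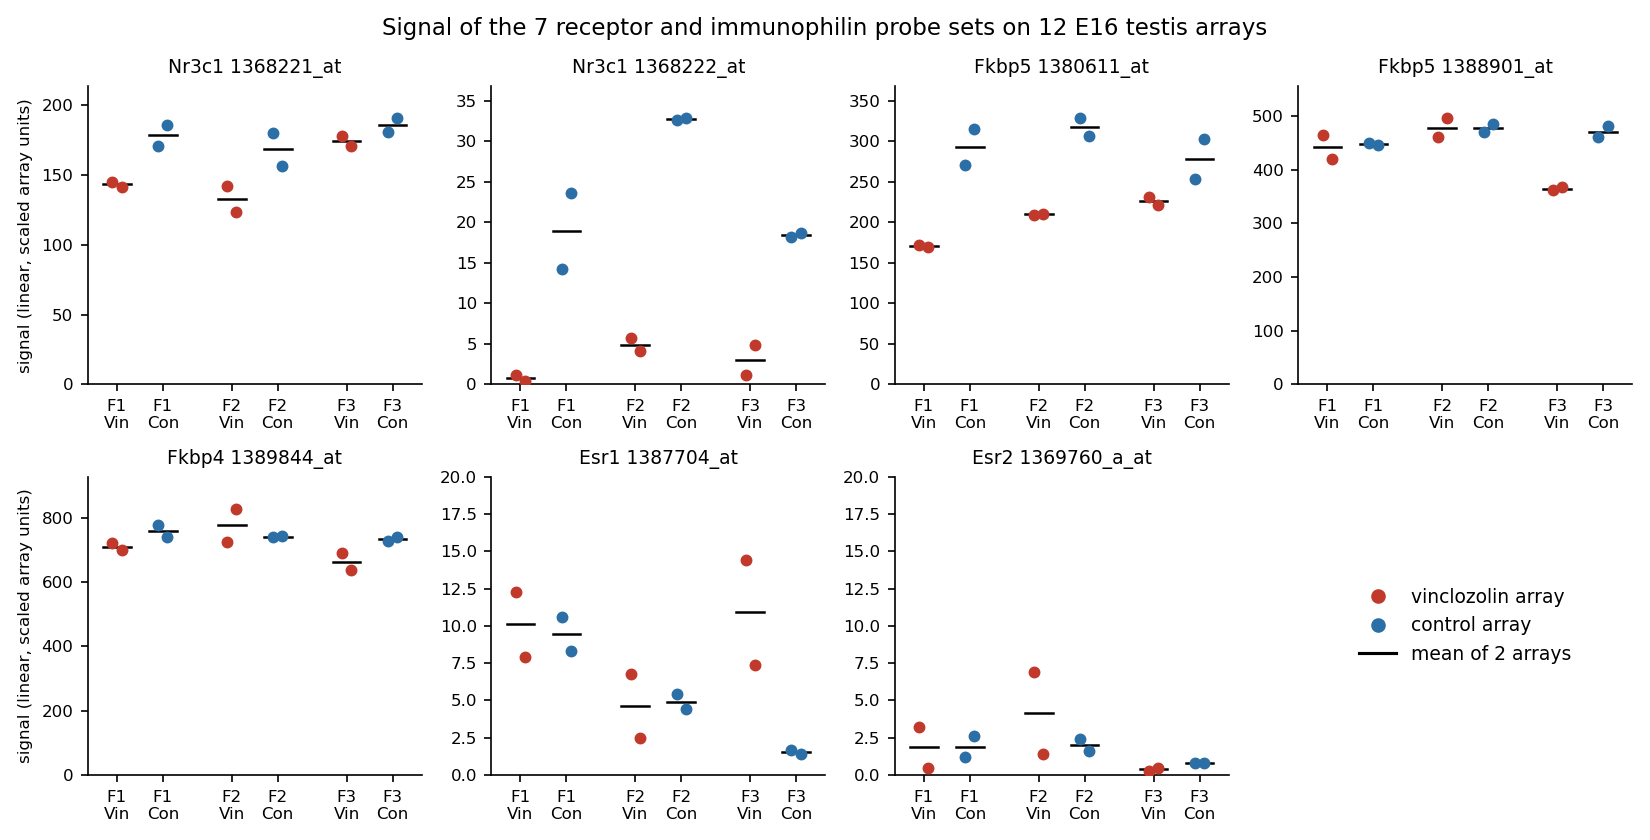
Signal of each of the 7 member probe sets (y axis, linear array signal) in the F1, F2 and F3 generations (x axis), with 1 dot per array, vinclozolin left of control and a line at the mean of the 2 arrays. The vinclozolin dots of Fkbp5 1380611_at (169.9 to 231.5) and of Nr3c1 1368222_at (0.4 to 5.7) all lie below the control dots (253.2 to 328.8 and 14.2 to 32.9), while those of Fkbp4 and Esr2 overlap over all 12 arrays.

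The 2 Fkbp5 probe sets therefore differed from each other in how far the lineages lay apart, and this was tested on the log2 difference between them within each array, a comparison chosen after their values were seen. The lineage difference of 1380611_at minus that of 1388901_at was −0.70 ± 0.16 in F1 (adjusted p = 0.00867 over 8573 pairs of probe sets of 1 gene). The same quantity was −0.56 ± 0.16 in F2 (adjusted p = 0.0333) and 0.08 ± 0.16 in F3 (adjusted p = 0.856). Such disagreement was common on these arrays, with 27.7% of all pairs called in F1, 20.4% in F2 and 1.04% in F3. The F1 call was lost without the F1 control array of replicate 2 (adjusted p = 0.0809), and the F2 call without any 1 of the F2 arrays or F3 control arrays (0.0522 to 0.172). With the beta-actin ratio as a covariate the values were −1.22 in F1 and −0.95 in F2 and neither passed (adjusted p = 0.877 and 0.800). In F1 and F2 1 probe set showed the lower Fkbp5 signal and the other did not. In F3 the fitted difference of 1380611_at was −0.27 and did not pass. That of 1388901_at in F3 was −0.36, a call lost in 12 of 23 alternatives. Where the probes of each set lie in the transcript was not analysed here, and the 2 probe sets were not averaged.

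Nr3c1, the glucocorticoid receptor, also had 2 probe sets. The signal of 1368221_at in F1 was 144.9 and 141.8 in vinclozolin testes, against 170.6 and 186.3 in control testes. In F2 its signal was 141.9 and 123.6 in vinclozolin testes, against 180.4 and 156.6 in control testes. In F3 its signal was 178.0 and 170.8 in vinclozolin testes, against 180.7 and 191.0 in control testes. Within each generation both vinclozolin arrays lay below both control arrays, which held in that direction for 30.6% of tested probe sets in F1, 30.4% in F2 and 29.7% in F3. Across generations the lineages overlapped, since F3 vinclozolin testes (174) sat among the F2, F1 and F3 control groups (169, 178 and 186) and only F2 and F1 vinclozolin testes (133 and 143) stood below them.

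The fitted differences of Nr3c1 1368221_at were −0.29 ± 0.11 in F1 (adjusted p = 0.0857), −0.31 ± 0.11 in F2 (adjusted p = 0.0851) and −0.08 ± 0.11 in F3 (adjusted p = 0.759), and none passed. Over the 3 generations it fell by 0.23 ± 0.07 (95% interval −0.37 to −0.09, adjusted p = 0.0156), a ratio of 0.854, and the difference did not pass a test of dependence on generation (adjusted p = 0.630). The call on the mean was lost in 7 of 25 alternatives. After centring each array on its median the mean difference was −0.13 (adjusted p = 0.123). It was also lost without the F1 control array of replicate 2 (adjusted p = 0.0571), the F2 control array of replicate 1 (0.0603) or the F3 control array of replicate 2 (0.0534).

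The second Nr3c1 probe set, 1368222_at, was dim and lay in the lowest 30% of mean signal, below 14.8, that was kept out of the main test. Its signal in F1 was 1.1 and 0.4 in vinclozolin testes, against 14.2 and 23.6 in control testes. In F2 it was 5.7 and 4.1 in vinclozolin testes, against 32.7 and 32.9 in control testes. In F3 it was 1.2 and 4.8 in vinclozolin testes, against 18.2 and 18.7 in control testes. All 6 vinclozolin arrays (0.4 to 5.7) lay below all 6 control arrays (14.2 to 32.9), as 5.57% of all 31042 probe sets did in the lower direction. In a fit without the filter it fell by 1.05 ± 0.18 in F1 (adjusted p = 0.00232), 1.22 ± 0.18 in F2 (adjusted p = 0.00198) and 0.86 ± 0.18 in F3 (adjusted p = 0.0420). The probe sets called lower in that fit were 8.65%, 5.67% and 0.770% of all in F1, F2 and F3, and 12.8% in the mean. The size of a difference at such dim signals is set by the number added before the logarithm: the mean of the 3 differences was −1.05 ± 0.10 with 16 added (adjusted p = 3.1e-05), −2.82 with 1 added and −0.38 with 64 added. The F3 call was lost in 14 of 21 alternatives, and with the beta-actin ratio as a covariate the F1, F2 and mean calls were lost too (−1.30, −1.41 and −1.22, adjusted p = 0.982, 0.870 and 0.941).

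The 2 Nr3c1 probe sets were also compared within each array, again after their values were seen. The lineage difference of 1368222_at minus that of 1368221_at was −0.76 ± 0.18 in F1 (adjusted p = 0.00942) and −0.91 ± 0.18 in F2 (adjusted p = 0.00616). In F3 it was −0.78 ± 0.18 and did not pass (adjusted p = 0.0693). With 64 added before the logarithm, the F1 and F2 calls were lost (adjusted p = 0.439 and 0.131), as they were without the F1 (0.0890) or F2 (0.0536) control array of replicate 2. With 1 added the differences were −3.18 in F1 and −2.19 in F2, and with 64 added −0.13 and −0.25. Since 1368222_at was near the floor on vinclozolin arrays, how far the 2 probe sets differ cannot be given.

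**Figure D2:**
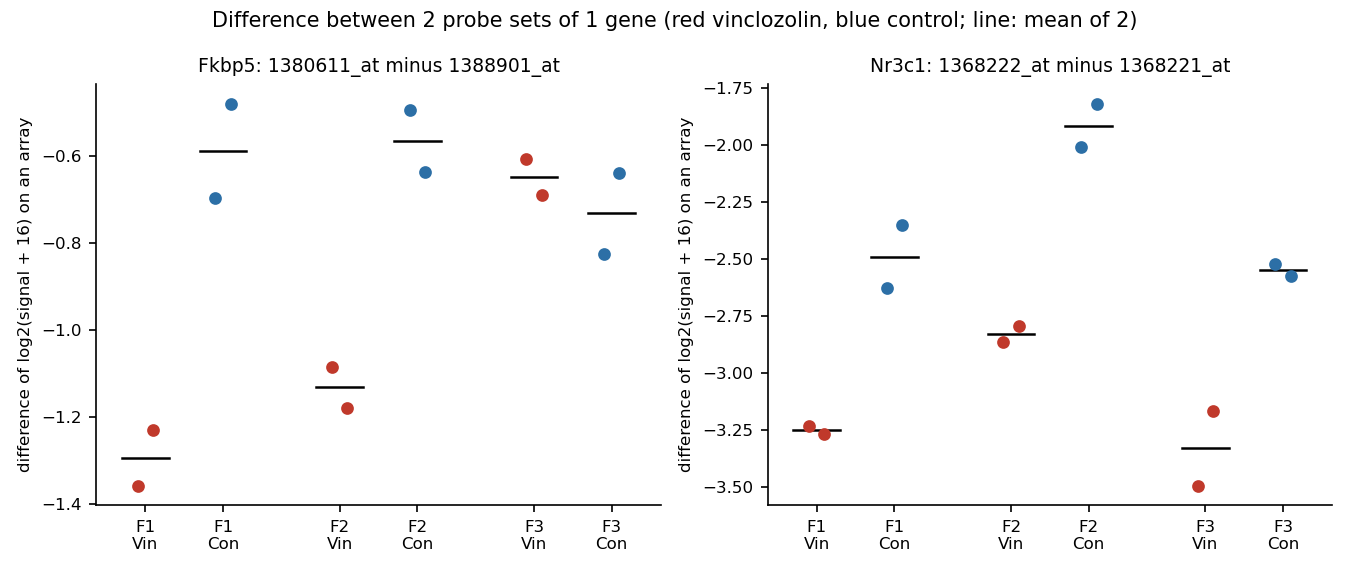
Log2 difference between the 2 probe sets of a gene on each array (y axis), for Fkbp5 (1380611_at minus 1388901_at) and Nr3c1 (1368222_at minus 1368221_at), by generation (x axis) and lineage. For Fkbp5 the vinclozolin arrays are lower than the controls in F1 and F2 and not in F3, where the lineage difference was 0.08, while for Nr3c1 they are lower in each generation.

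Fkbp4, the immunophilin that promotes hormone binding, had 1 probe set, 1389844_at. In F1 its signal was 720.3 and 698.8 in vinclozolin testes, against 777.5 and 738.9 in control testes. In F2 it was 725.2 and 827.6 in vinclozolin testes, against 739.2 and 743.2 in control testes. In F3 it was 688.6 and 637.9 in vinclozolin testes, against 727.2 and 740.7 in control testes. The lineages overlapped in F2 and not in F1 or F3, where 30.6% and 29.7% of tested probe sets were as separate in this direction, and the 6 control arrays stayed close together (744 ± 17.1, SD) beside a wider spread in the 6 vinclozolin arrays (716 ± 62.8). The differences were −0.09 ± 0.09 in F1 (adjusted p = 0.486), 0.06 ± 0.09 in F2 (adjusted p = 0.689) and −0.14 ± 0.09 in F3 (adjusted p = 0.420). Over the generations the mean was −0.06 ± 0.05, with a 95% interval from −0.17 to 0.05 (adjusted p = 0.413). No difference in Fkbp4 passed the test, and the interval holds mean changes of up to −0.17.

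The estrogen receptors were measured at the dim end of the array, below the level that entered the main test, so that their signals mostly set a limit on what could be seen. Esr1 (1387704_at) in F1 had signals of 12.3 and 7.9 in vinclozolin testes, against 10.6 and 8.3 in control testes. In F2 it had 6.8 and 2.5 in vinclozolin testes, against 5.4 and 4.4 in control testes. In F3 it had 14.4 and 7.4 in vinclozolin testes, against 1.7 and 1.4 in control testes. The lineages overlapped in F1 and F2 and not in F3, where 25.1% of all 31042 probe sets had both vinclozolin arrays above both controls. In the fit without the filter the F3 difference was 0.60 ± 0.18 and did not pass (unadjusted p = 0.00565, adjusted p = 0.134), and the F1 and F2 differences were 0.03 and −0.02. The F3 controls (1.55) were the lowest of the 6 groups for Esr1, and the 3 control groups differed at an unadjusted p of 0.0366 and an adjusted p of 1.00.

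Esr2 (1369760_a_at), the estrogen receptor beta gene, had signals between 0.3 and 6.9 in vinclozolin testes and between 0.8 and 2.6 in control testes. The lineages overlapped in F1 and F2. In F3 they were at 0.3 and 0.5 in vinclozolin testes, against 0.8 and 0.8 in control testes, which did not overlap, as for 24.7% of all probe sets in this direction. The differences without the filter were −0.01 in F1, 0.15 in F2 and −0.03 in F3, and none passed. At these signals neither a change nor its absence was detectable. The progesterone receptor Pgr (1387563_at) lay in the same range, at 0.7 to 10.0 in vinclozolin testes and 0.8 to 11.7 in control testes, and none of its differences in the fit without the filter passed (−0.12 in F1, −0.31 in F2 and 0.25 in F3, adjusted p from 0.471 to 0.802). The mineralocorticoid receptor Nr3c2 (1368476_at) entered the test at signals of 4.4 to 25.6 and 10.0 to 19.8, and none of its differences passed.

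Of the 4 member probe sets that passed the filter, 1 was called in F1 (Fkbp5 1380611_at), beside 23.1% of all tested probe sets. In F2 the same 1 was called, beside 14.3%, and in F3 Fkbp5 1388901_at was called, beside 3.11%. For the mean of the 3 generations 2 were called, Fkbp5 1380611_at and Nr3c1 1368221_at, beside 33.3%. None of the 4 was called for dependence on generation (2.60% of all), although 2 had an unadjusted p under 0.05, and none was called among the control groups, where limma called 0% of all probe sets and 517 of 21729 had an unadjusted p under 0.05. All member calls were lower in the vinclozolin lineage, and lower calls made up 13.7% of tested probe sets in F1, 9.65% in F2, 2.06% in F3 and 19.2% in the mean. A count of 1 or 2 among 4 probe sets of 3 genes cannot be told from these shares.

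**Figure D3:**
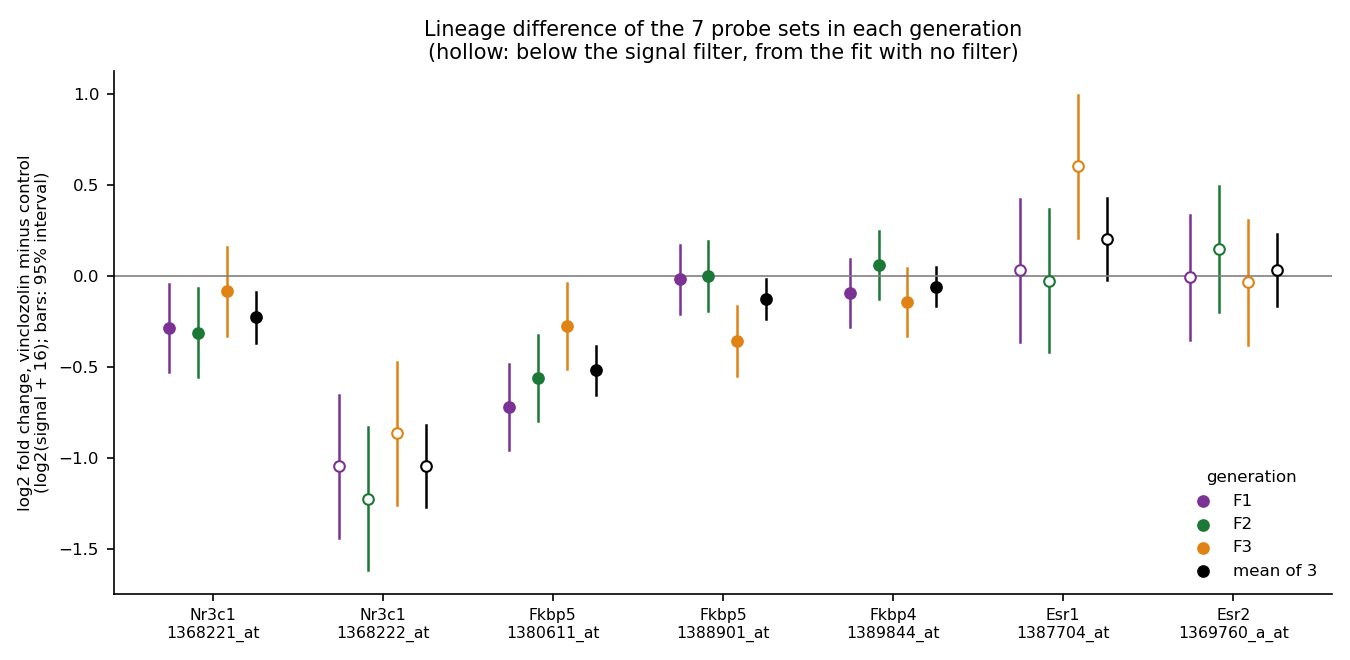
Log2 fold change, vinclozolin minus control, on the log2(signal + 16) scale (value axis) for each member probe set in F1, F2, F3 and the mean of the 3, with 95% intervals. Filled points come from the test with the filter on dim probe sets and hollow ones from the fit without it. Fkbp5 1380611_at lies at −0.72, −0.56 and −0.27 in F1, F2 and F3, and Fkbp4 has intervals that hold 0.

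**Figure D4:**
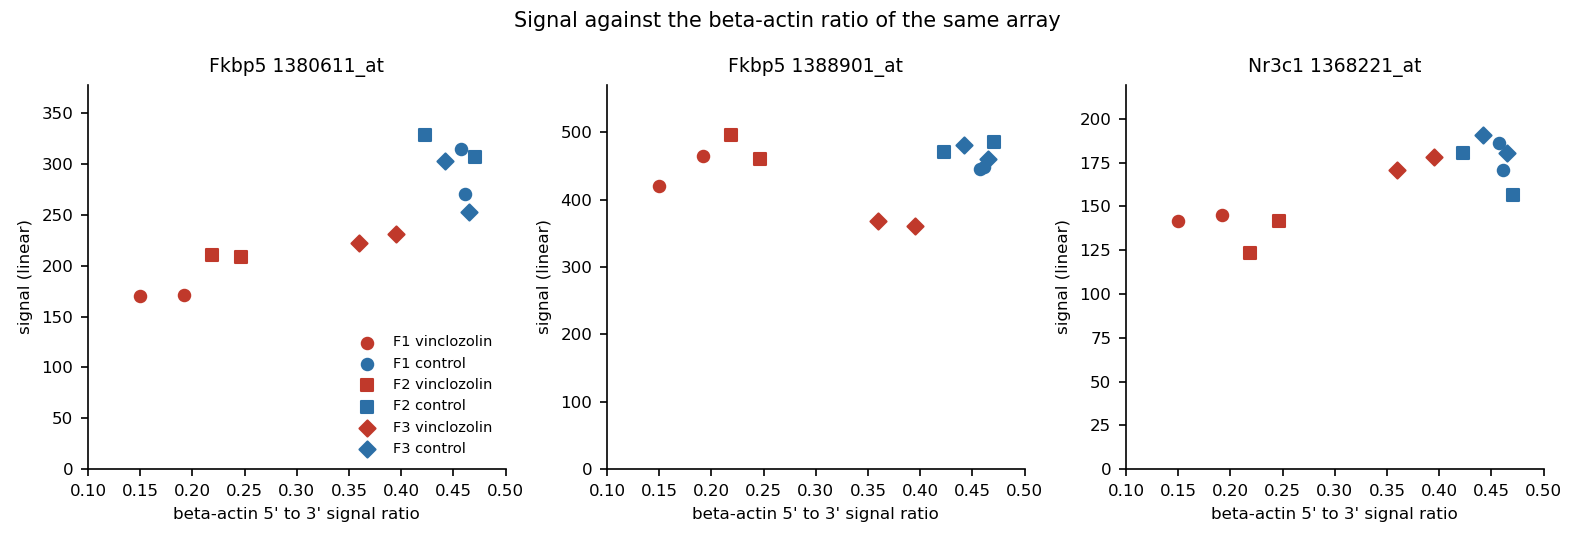
Signal (y axis) of both Fkbp5 probe sets and of Nr3c1 1368221_at on each of the 12 arrays against the 5' to 3' ratio of beta-actin (x axis), coloured by lineage. The vinclozolin arrays lie at ratios of 0.149 to 0.395 and the controls at 0.423 to 0.471, with no array between 0.395 and 0.423. Signals of 1380611_at are lowest at the lowest ratios, whereas those of 1388901_at are lowest in the F3 vinclozolin arrays.

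The genes around the receptors were read from lists built on textbook knowledge, with the brightest probe set of each gene. These lists were chosen with earlier results of these data known, so their counts are descriptions and not independent tests. Of the 18 tested genes of the receptor chaperone complex, 3 rose and 4 fell over the mean of the 3 generations, beside 17.6% and 13.5% of all 11293 genes called. Their median change was 0.03, and that of all genes was 0.02. Ppid, an immunophilin that sits in the same complex, rose by 0.23 ± 0.06 (adjusted p = 0.00583), and Ahsa1, which activates the ATPase of Hsp90, rose by 0.21 ± 0.05 (adjusted p = 0.00296). Ppp5c, a phosphatase that docks at the same site as Fkbp4 and Fkbp5, fell by 0.23 ± 0.07 (adjusted p = 0.0236). The share of higher against lower calls in this list depended on scaling, with 9 higher and 1 lower after median centring. That centring moved the calls in the mean over all 21729 tested probe sets from 3072 higher and 4173 lower to 5524 and 2795. These are counts of probe sets, whereas the list counts are of genes. Hsp90ab1, the constitutive Hsp90, was named outside the naming rule of the lists. It had a probe set at −0.60 over the mean (1375335_at), which is not the one counted in the list. Another, 1375336_at, was at 0.04 and did not pass.

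Hspa4, a chaperone of the Hsp110 family that exchanges the nucleotide of Hsp70 proteins, changed in opposite directions between generations. In F1 its signal was 432.2 and 352.4 in vinclozolin testes, against 255.7 and 282.5 in control testes. In F2 its signal was 133.4 and 173.5 in vinclozolin testes, against 271.7 and 264.4 in control testes. In F3 its signal was 82.4 and 108.8 in vinclozolin testes, against 218.4 and 280.7 in control testes. The lineages did not overlap in any generation, and the vinclozolin arrays were above the controls in F1 and below them in F2 and F3. As separate in the lower direction were 30.4% of tested probe sets in F2 and 29.7% in F3. The share for the higher direction in F1 is not given here. Hspa4 rose by 0.51 ± 0.15 in F1 (adjusted p = 0.0265) and fell by 0.76 ± 0.15 in F2 (adjusted p = 0.00482). In F3 it fell by 1.25 ± 0.15 (adjusted p = 0.000701), with an adjusted p of 0.00226 for dependence on generation. Leaving out 1 F1 array, either control or the vinclozolin array of replicate 1, gave an adjusted p between 0.0740 and 0.165 in F1. With the beta-actin ratio as a covariate the F1 value was −0.35 and did not pass (adjusted p = 1.00).

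Of the 21 other FK506-binding proteins and immunophilins tested, 8 rose and 4 fell over the mean, and after median centring 11 were higher and 1 lower. For this list and those below, 17.6% of all 11293 genes were called higher over the mean and 13.5% lower. After median centring, 5524 of all 21729 tested probe sets were called higher and 2795 lower. These count probe sets and not genes, and the share of all genes called after centring is not given here. Fkbp7, of the endoplasmic reticulum, rose by 0.42 ± 0.08, and the cyclophilins Ppil3 and Ppih rose by 0.39 ± 0.08 and 0.38 ± 0.08. Ppif, the mitochondrial cyclophilin, fell by 0.45 ± 0.09 (adjusted p between 0.000774 and 0.00215 for these 4). Of 25 receptor coregulators 3 rose and 8 fell over the mean, with a median change of −0.08, and the calls were 4 higher and 6 lower after median centring. Ncoa3, a coactivator of steroid receptors, fell by 0.73 ± 0.10, the RNA helicase and coactivator Ddx17 by 0.53 ± 0.10, Ncoa6 by 0.39 ± 0.07 and the acetyltransferase Ep300 by 0.30 ± 0.07. A second Ncoa3 probe set, 1380638_at, was at −0.17 and did not pass. Of 18 related nuclear receptors 0 rose and 5 fell over the mean, among them Rora by 0.95 ± 0.12 and Nr1h2 by 0.45 ± 0.07. After median centring 1 was higher and 2 lower. Rora (1379397_at) was dim, with vinclozolin means of 14.9 in F1 and 4.35 in F2, against 46.65 and 42.65 in controls. At such signals the size of a difference depends on the number added before the logarithm.

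Genes known to respond to glucocorticoids or estrogens were called in both directions, and androgen-responsive genes in 1. These lists too were chosen with earlier results of these data known. Beside each of these lists, 17.6% of all 11293 genes were called higher over the mean and 13.5% lower. Median centring gave 5524 higher and 2795 lower calls over all 21729 tested probe sets, which is not a count of genes as in the lists. Of 19 glucocorticoid-responsive genes other than Fkbp5, 4 rose and 3 fell over the mean, with a median of 0.02 beside 0.02 for all genes, and 6 were higher and 2 lower after median centring. Dusp1, a phosphatase that glucocorticoids induce, rose by 0.48 ± 0.08 over the mean in probe set 1368146_at (adjusted p = 0.000218), while in 1368147_at it fell by 0.36 ± 0.13 over the mean (adjusted p = 0.0464). In F3 these probe sets were at 0.91 ± 0.13 (adjusted p = 0.00212) and 0.12 ± 0.23 (adjusted p = 0.844). Angptl4 rose by 0.41 ± 0.06 and Errfi1 fell by 0.32 ± 0.08 over the mean. Of 12 estrogen-responsive genes 1 rose and 4 fell, led by Rara at −0.33 ± 0.10, and 1 was higher and 1 lower after median centring. Of 10 androgen-responsive genes 4 rose and 0 fell over the mean, also after median centring. They were Rhox5, a homeobox gene of Sertoli cells, with a difference of 0.39 ± 0.05, and the secretoglobins Scgb1d4, Scgb1d2 and Scgb2a1, which also count among the 4 ventral prostate markers summed above. Of 8 steroid-metabolising enzymes 0 rose and 1 fell over the mean, Hsd17b7 by 0.21 ± 0.07, and after median centring 1 was higher and 0 lower.

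**Figure D5:**
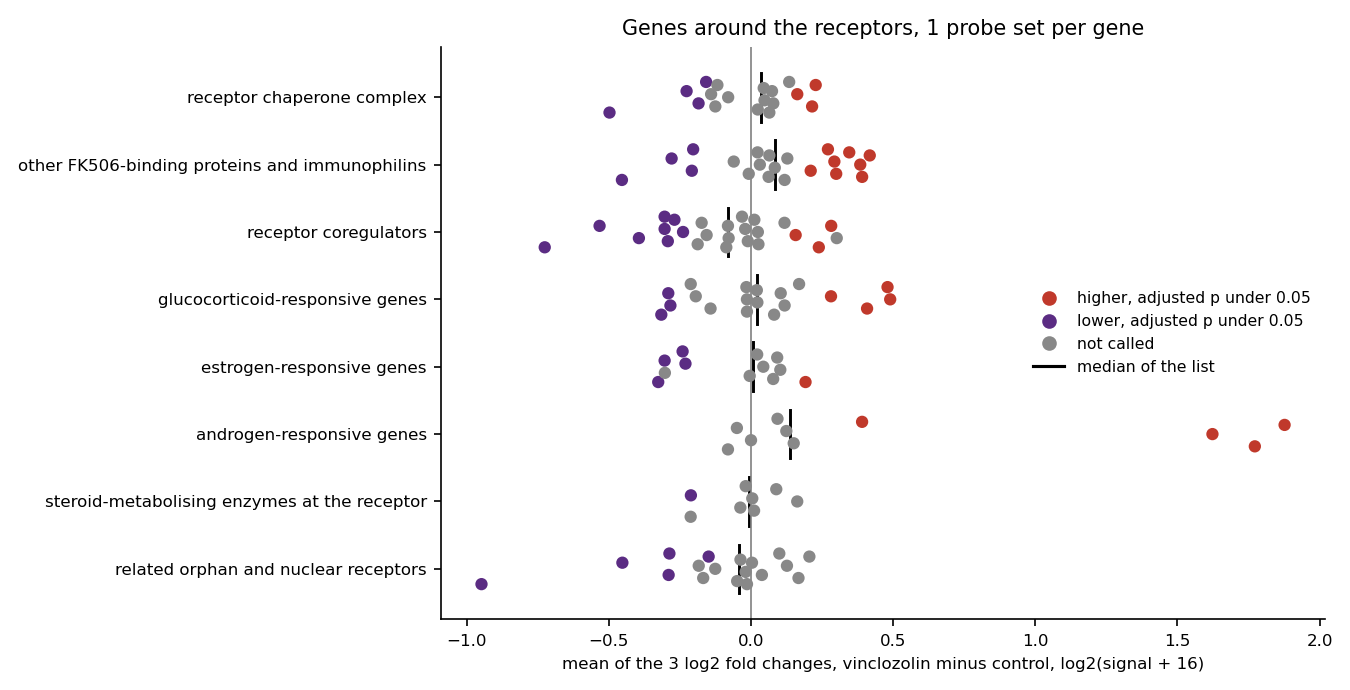
Mean of the 3 log2 fold changes, vinclozolin minus control (x axis), for each tested gene of 8 lists (rows), with the brightest probe set of each gene, red for called higher, purple for called lower, grey for not called and a bar at the list's median. The medians lie between −0.08 and 0.14, and 3 secretoglobins stand apart at 1.62 to 1.88.

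The probe sets whose log2 signal followed the brightest probe set of Nr3c1, Fkbp4 and Fkbp5 most closely over the 12 arrays were named as a description. Esr1 and Esr2, below the filter, were not compared in this way. All such values share the arrays, their scaling and the gap between lineages. For Nr3c1 1368221_at these were Chac2 (Pearson's r = 0.952), Gpam (0.947) and Pcmtd2 (0.946). For Fkbp4 they were Foxp4 (0.935), Piezo1 (0.929) and Zfp335 (0.926). For Fkbp5 1388901_at they were Fgfr1 (0.949), Maz (0.943) and Actn4 (0.940).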

How the data were processed

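Rat testis RNA of 12 pools was measured on Affymetrix arrays. The deposited values are linear signal intensity per probe set, from 0 to 9534.9 with 33 zeros, scaled by the submitters to a trimmed mean of 125.03 to 125.04 per array, as the values themselves show. Which software summarised the probes is not given in the sources used here. Detection calls were not used. The number of arrays limits the precision.

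Of 31099 probe sets, 57 controls were left out, and gene symbols came from GEO's platform annotation (20837 probe sets with 1 symbol, 425 with several, 9780 with none). Values were taken as log2(signal + 16), the dimmest 30% by mean log2 value (9313 probe sets, under a signal of 14.8) were dropped, and the remaining 21729 entered limma 3.58.1 in R 4.3.3. Group means of the 6 groups were fitted over all arrays with trended eBayes (6 residual and 8.97 prior degrees of freedom), and calls were made where p after Benjamini-Hochberg adjustment was under 0.05. Contrasts set vinclozolin against control in F1, F2 and F3, with their mean, an F test of dependence on generation and an F test among controls. A single comparison of 2 arrays against 2 cannot give an exact permutation p below 0.333. The code was tested on simulated data. Promoter windows were from RefSeq, build GRCr8.

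The members and gene lists were chosen with earlier results of these data known. Genes of a list were named by rule: for each contrast the 4 called members that changed most, or with none called the 2 of lowest p. Not all of these are printed. Hsp90ab1 was named outside that rule. Other probe sets of the named genes were named after their values were seen. Those of Rora, Nr1h2, Ncoa6, Ddx17 and Ep300, among others, are not printed. Alternatives were the added number, the filter, quantile normalization, cyclic loess, median centring, array weights, a replicate block, the beta-actin ratio as a covariate, each generation's own arrays and leaving out each array or generation.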

Additional observations from a re-analysis of the deposited data

Results flagged for a closer look

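The lineage difference depended on generation for 4 genes of the lists around the receptors, by limma's F test over all tested probe sets. Hspa4 had an adjusted p of 0.00226, with vinclozolin signals of 352.4 and 432.2 in F1, 133.4 and 173.5 in F2 and 82.4 and 108.8 in F3, against 218.4 to 282.5 on the 6 control arrays. Scgb1d4 had an adjusted p of 3.63e-05, with F3 vinclozolin signals of 239.1 and 287.7, against 0.4 and 0.6 in F3 controls. Scgb1d2 had an adjusted p of 0.000302, with F3 vinclozolin signals of 208 and 248.5, against 4.2 and 2.7 in F3 controls. Scgb2a1 had an adjusted p of 0.0023, with F3 vinclozolin signals of 166.6 and 213.5, against 4.1 and 1.5 in F3 controls. None of the member probe sets was among them.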

How the results depend on the processing

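Alternatives for dim probe sets, in fits without the filter, and for differences between probe sets of a gene were chosen after seeing the data. The recomputed values of the member probe sets include those of the F tests, which have no direction and were not called in the main fit. Of all these values 854 kept their side of the threshold and, where they had one, their direction. A further 40 lost a call, 9 gained one, 27 that were not called changed sign, and 0 called values changed sign. The members called were 1 in F1, 1 in F2, 1 in F3, 2 in the mean and 0 for dependence on generation. Without the filter they were 2 in F1, 2 in F2 and 3 in the mean, the added one being Nr3c1 1368222_at, and the 1 in F3 was Nr3c1 1368222_at in place of Fkbp5 1388901_at. Median centring, which moved the median difference of all probe sets from −0.01 to 0.10 in F1, gave 0 in F3 and 1 in the mean. The replicate block gave 0 in F3, where Fkbp5 1388901_at had an adjusted p of 0.0516. Same-numbered arrays of the 2 lineages correlated at −0.02 in F1, −0.04 in F2 and 0.03 in F3 in their deviations from the group means. No deviation shared by replicate number was thus seen, and whether pools were paired by litter or handling was not tested. With the beta-actin ratio as a covariate they were 0 in F1, 0 in F2, 0 in F3 and 0 in the mean. Without F1, 1 was called in the mean. Leaving out each array in turn gave 1 in F1, 0 to 2 in F2, 0 to 1 in F3, 1 to 3 in the mean and 0 to 1 for dependence on generation, where the 1 was Fkbp5 1388901_at without the F1 vinclozolin array of replicate 1. Hspa4 in F1 was −0.35 under the covariate (adjusted p = 1.00), against 0.51 without it. Over all tested probe sets the calls were 5026 in F1, 3118 in F2 and 676 in F3. They were 351 in F3 without the filter, 2294 in F1 and 2262 in F3 when only that generation's 4 arrays were fitted, and 2514 to 7183 in F1, 1083 to 4884 in F2 and 65 to 2172 in F3 when 1 array was left out. Higher and lower calls in the mean were 3072 and 4173, and 5524 and 2795 after median centring. The cause of these changes was not tested. Signals under about 15, as for Esr1, Esr2 and Nr3c1 1368222_at, limit what could be measured.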
